A study of Mus musculus with 7 samples.

Results

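The genes described here are the mouse receptors still named Gpr and a number, the symbols given to G protein-coupled receptors before a ligand or function was known. They were every row of the deposited count table whose symbol was Gpr followed by a digit, with Gpr34 and Gpr84 left out, which gave 43 of the 14594 named rows. RNA was sequenced from cortical microglia of 12-week-old C57BL/6 mice, and the comparison asks whether the microglia that descend from Hoxb8-expressing precursors differ from those that do not. All animals, those behind the control libraries included, had the same 3 alleles: a green reporter in the fractalkine receptor locus (Cx3Cr1GFP/+), a Cre in the Hoxb8 locus (Hoxb8IRES-Cre/+), and a Cre-dependent red reporter (ROSA26CAG-LSL-tdTomato/+). The red reporter stays on in every descendant of a cell that once expressed Cre, so it records lineage and not present Hoxb8 expression. Hoxb8 microglia are the sorted cells with red and green (libraries 6, 14 and 22, replicates 1 to 3), and non-Hoxb8 microglia are those with green and no red (libraries 5, 13, 21 and 25, replicates 1 to 4). The labels name 4 animals for the 7 libraries and do not say which libraries share one.

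G protein-coupled receptors cross the membrane and, when a ligand binds outside, switch on G proteins inside, which change cyclic AMP, calcium or the cytoskeleton before receptor kinases, arrestins and RGS proteins end the signal. Microglia use such receptors to sense nucleotides, lipids, chemokines and acid in the brain. Some genes that bear a Gpr symbol are not classical receptors but proteins of the Golgi or lysosome with several membrane spans, and others are best known from neurons, astrocytes or oligodendrocytes.

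The libraries carried the microglial signature named by their labels, with traces of other cells. They held 5922972 to 7753577 counts in all, of which 12388 to 18210 fell on the 43 genes. The summed level of 10 microglial markers was 28955 to 38969.9 CPM (counts scaled by library total with TMM factors), and P2ry12, a microglial nucleotide receptor, alone stood at 7243 to 10979.9 CPM. All 9 detected monocyte markers and all 12 markers of border-associated macrophages had counts, at higher sums in most Hoxb8 libraries. Monocyte markers summed to 307 to 672 CPM in Hoxb8 and 124 to 202 CPM in non-Hoxb8 libraries, with no overlap, and border-associated macrophage markers to 350 to 1545 and 92.5 to 388 CPM, where library 25 exceeded library 22. Astrocyte markers summed to 293 to 1214 CPM, the highest in library 25, and neutrophil markers to 3.64 CPM or less. Libraries 5 and 6 had Xist and almost no Y-linked RNA, libraries 13 and 14 the reverse, and libraries 21, 22 and 25 had both, so several results are also given below without the last 3. Whether animals of both sexes were pooled is not stated in the labels. In bulk RNA, fewer cells of a type and less RNA per cell cannot be told apart.

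Of the 43 genes, 25 had enough counts to be tested, and 0 of them passed the quasi-likelihood test of edgeR after Benjamini-Hochberg adjustment, in either direction. Over all 11874 genes tested, 4 passed on the higher side (0.0337%) and 0 on the lower side (0%), so few genes of any kind passed. At an unadjusted p under 0.05, 2 of the 25 were higher in Hoxb8 libraries (Gpr65 and Gpr132) and 1 was lower (Gpr82), where 1.95% and 1.57% of all tested genes did the same. Libraries of the groups did not overlap for 1 gene in each direction, Gpr65 above and Gpr82 below, against 2.48% and 2.08% of all tested genes. DESeq2 called 1 of the 34 members to which it gave an adjusted p, Gpr65, on the higher side, and 0 on the lower side, against 0.159% and 0.0379% of 13195 genes. With libraries of adjacent number taken as pairs, edgeR called 43 of all genes higher (0.362%) and again 0 of the members. The log2 fold changes of the tested members, Hoxb8 over non-Hoxb8, ran from -1.88 to 2.94 with a median of 0.16, beside a median of -0.00 for all tested genes. Of the 25, 15 lay above 0, 18 lay within 0.5 of it and 5 lay past 1 in size. The 18 members left untested had between 1 and 62 counts each over the 7 libraries.

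**Figure D1:**
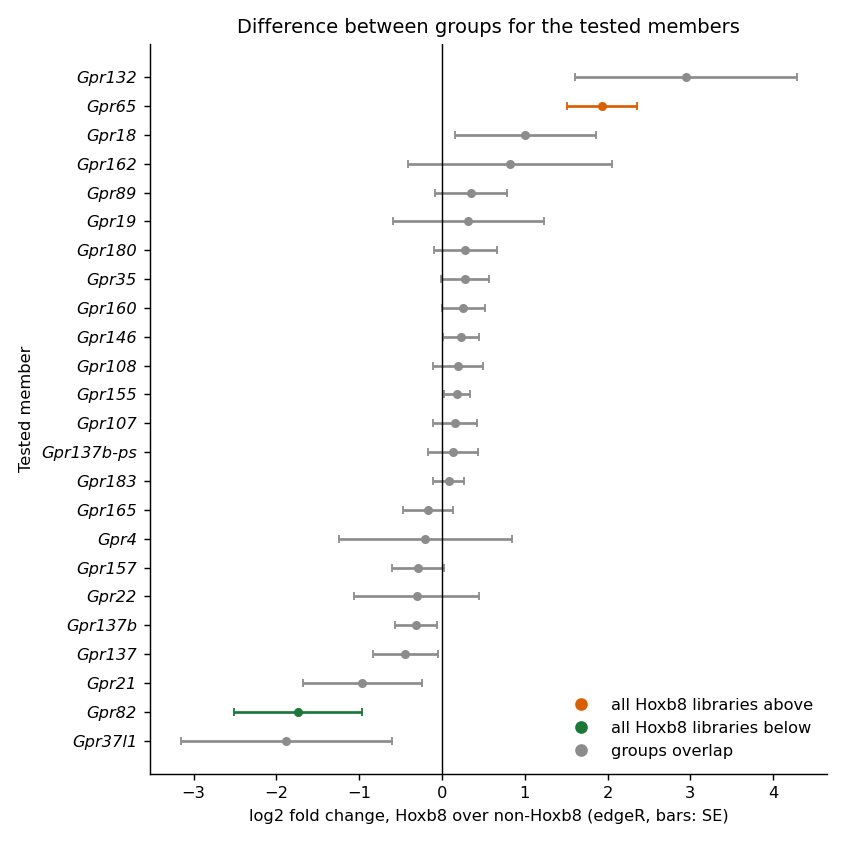
Log2 fold change of each of 24 tested members, Hoxb8 over non-Hoxb8 microglia, on the horizontal axis, with bars for the standard error from edgeR. Most points lie within 0.5 of the line at 0, and the coloured points mark Gpr65 and Gpr82, the only tested members whose 3 Hoxb8 and 4 non-Hoxb8 libraries did not overlap.

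Receptors that sense protons, here Gpr65, Gpr132 and Gpr4, included both of the largest positive log2 fold changes of the tested members. Gpr65 responds to acid outside the cell, couples to Gs and raises cyclic AMP, and is known from lymphocytes and macrophages. Its level was 10.7, 7.77, 10.4 and 8.93 CPM in non-Hoxb8 libraries 5, 13, 21 and 25. In Hoxb8 libraries 6, 14 and 22 it was 22.3, 64.0 and 21.8 CPM. Every Hoxb8 library lay above every non-Hoxb8 library, and library 14 stood far above the other two. The means were 36.0 ± 24.2 (SD, n = 3) and 9.46 ± 1.37 CPM (SD, n = 4), and the log2 fold change was 1.93 ± 0.42 (SE) with an edgeR p of 0.00033 and an adjusted p of 0.35. DESeq2 put the adjusted p at 0.017, and edgeR with the library pairs at 0.15. Within the adjacent pairs, the Hoxb8 library held 2.08, 8.24 and 2.09 times the level of its neighbour. Without library 14 the log2 fold change was 1.22 ± 0.44 (SE, edgeR adjusted p = 1.00), and the DESeq2 call was lost (adjusted p = 0.78). In libraries 5, 6, 13 and 14 alone it was 2.22 ± 0.59 (SE, edgeR adjusted p = 1.00).

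Between the groups, Gpr65 and the summed monocyte markers differed in the same direction: library 14 had the most of both (672 CPM of markers), libraries 6 and 22 came next (326 and 307 CPM), and the non-Hoxb8 libraries had less. Among the non-Hoxb8 libraries the order differed, as library 13 had the most markers (202 CPM, against 136, 124 and 150.5 CPM in libraries 5, 21 and 25) and the least Gpr65. Of the 7 monocyte markers tested, 7 had a positive log2 fold change, with a median of 2.73, and 1, the integrin Itga4, passed edgeR (adjusted p = 0.0067), while 6 had an unadjusted p under 0.05 and DESeq2 called 4. Ccr2, which draws classical monocytes towards chemokines, averaged 44.0 ± 9.13 (SD, n = 3) and 16.7 ± 3.57 CPM (SD, n = 4), and its log2 fold change was 1.40 ± 0.32 (SE, edgeR adjusted p = 0.46, DESeq2 adjusted p = 0.019). Of the 12 border-associated macrophage markers, 11 had a positive log2 fold change, with a median of 2.20, and 0 passed edgeR, while 9 had an unadjusted p under 0.05 and DESeq2 called 2. With the pairs, edgeR called 8 of these 12 and 3 of the monocyte markers. All 6 tested dendritic cell markers had a positive log2 fold change, with a median of 0.41, and their sums overlapped between groups (2368 to 2954 CPM in Hoxb8 and 2009 to 2788 CPM in non-Hoxb8 libraries), a list that shares the abundant Siglech with the microglial one. Of these, 1 passed edgeR, the lectin Cd209a (adjusted p = 0.028), at 8.02, 54.9 and 6.87 CPM in Hoxb8 libraries 6, 14 and 22 and at most 0.48 CPM in non-Hoxb8 libraries. Lymphocyte markers summed to 19.9 to 56.0 CPM in Hoxb8 and 2.08 to 31.7 CPM in non-Hoxb8 libraries, and both tested ones lay above 0. Cd4 was 2.22 ± 0.99 log2 units higher in Hoxb8 libraries (SE, edgeR adjusted p = 1.00) and Cd79b 0.20 ± 0.64 (SE). Both genes overlapped between groups. Cd4 reached 28.1 CPM in Hoxb8 library 14. Its Hoxb8 levels of 3.47 CPM (library 6) and 1.48 CPM (library 22) lay within the non-Hoxb8 range, 0.32 to 4.94 CPM. The marker lists were chosen with earlier results of these data known, so the counts of markers are not independent of those results. The part that any of these cells have in the Gpr65 difference was not tested.

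**Figure D2:**
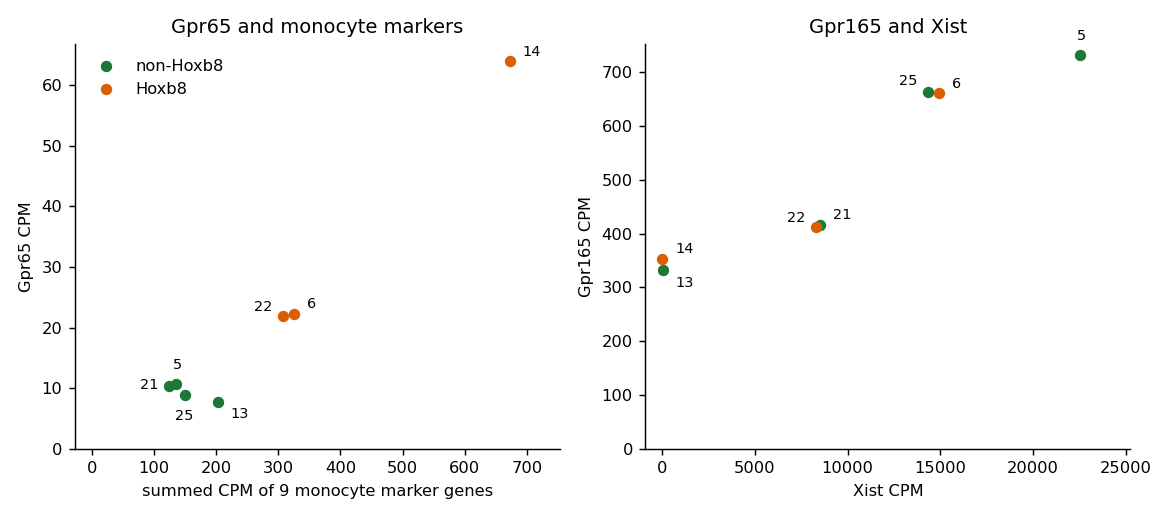
Left, Gpr65 in CPM against the summed CPM of 9 monocyte marker genes, and right, Gpr165 in CPM against Xist in CPM, with 1 point per library, coloured by group and labelled by library number. Left, the 3 Hoxb8 libraries lie above and to the right of the 4 non-Hoxb8 libraries, with library 14 at 64.0 CPM of Gpr65. Right, Gpr165 lies between 331 and 732 CPM with members of each adjacent pair close together and no separation of the groups.

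In GENCODE M21 (assembly GRCm38), Gpr65 lies on the plus strand of chromosome 12 from 98268635 to 98276644, with its protein coded in 1 exon. The annotated transcript Gm47566 overlaps its exons on the opposite strand over 511 bases, and since the libraries kept no strand, the origin of reads from the overlap cannot be told. Whether Gm47566 was in the annotation used for counting is not known. The 250 bases before the start of Gpr65 are shown because it was the tested member whose Hoxb8 libraries all lay above the others. They occupy chr12:98268385-98268634 (plus strand, RefSeq annotation, GRCm38.p6), and capitals mark the reverse complement of GAGGAA, the core letters bound by the myeloid factor PU.1, which begins 48 bases before the start.
Gpr65: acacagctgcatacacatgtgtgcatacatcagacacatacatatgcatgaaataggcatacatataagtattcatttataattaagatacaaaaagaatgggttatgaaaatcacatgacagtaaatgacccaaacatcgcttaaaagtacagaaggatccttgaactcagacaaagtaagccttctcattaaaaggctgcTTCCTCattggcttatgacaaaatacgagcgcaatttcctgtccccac
Both strands were searched for GAGGAA and for the TATA letters TATAAA. The latter had 1 match in this window, 175 bases before the start, and the matches did not overlap. GAGGAA occurred in 23.3% of all 32851 RefSeq promoter windows of this length and in 18.2% of the 44 windows that belong to 32 of the members, and TATAAA in 12.4% of all windows. A match describes the letters only.

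Gpr132 is a receptor of leukocytes for oxidised lipids that responds weakly to acid. It measured 0.14 CPM in non-Hoxb8 library 5, 3.82 CPM in library 13, and 0 in libraries 21 and 25. In Hoxb8 libraries 6, 14 and 22 it measured 1.87, 16.5 and 5.53 CPM. The groups overlapped, because library 13 exceeded library 6, although the Hoxb8 library was the higher of each adjacent pair. The log2 fold change was 2.94 ± 1.34 (SE) with an edgeR p of 0.047 and an adjusted p of 1.00. It was 6.86 ± 1.40 (SE, edgeR adjusted p = 0.25) without library 13, 1.86 ± 1.53 (SE, edgeR adjusted p = 1.00) without library 14, and 2.20 ± 1.42 (SE, edgeR adjusted p = 1.00) in libraries 5, 6, 13 and 14 alone. Libraries 13 and 14, each the highest of its group for Gpr132, held the most Il1b, an inflammatory cytokine, at 408 and 943 CPM against 5.77 to 26.6 CPM elsewhere. Library 22 went the other way, with more Gpr132 than library 13 and 8.76 CPM of Il1b, and the part of Il1b in the Gpr132 levels was not tested. Gpr132 lies on chromosome 12 from 112850873 to 112868228 and its exons overlap no other annotated gene.

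Gpr4, the proton sensor of endothelial cells, stood at 2.06, 1.02, 0.64 and 4.98 CPM in non-Hoxb8 and at 3.07, 0.54 and 2.02 CPM in Hoxb8 libraries (log2 fold change -0.20 ± 1.05, SE, edgeR adjusted p = 1.00). The groups overlapped: its highest level was in non-Hoxb8 library 25 and its lowest in Hoxb8 library 14, and the endothelial markers summed to 36.7 to 64.3 CPM in all libraries.

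**Figure D3:**
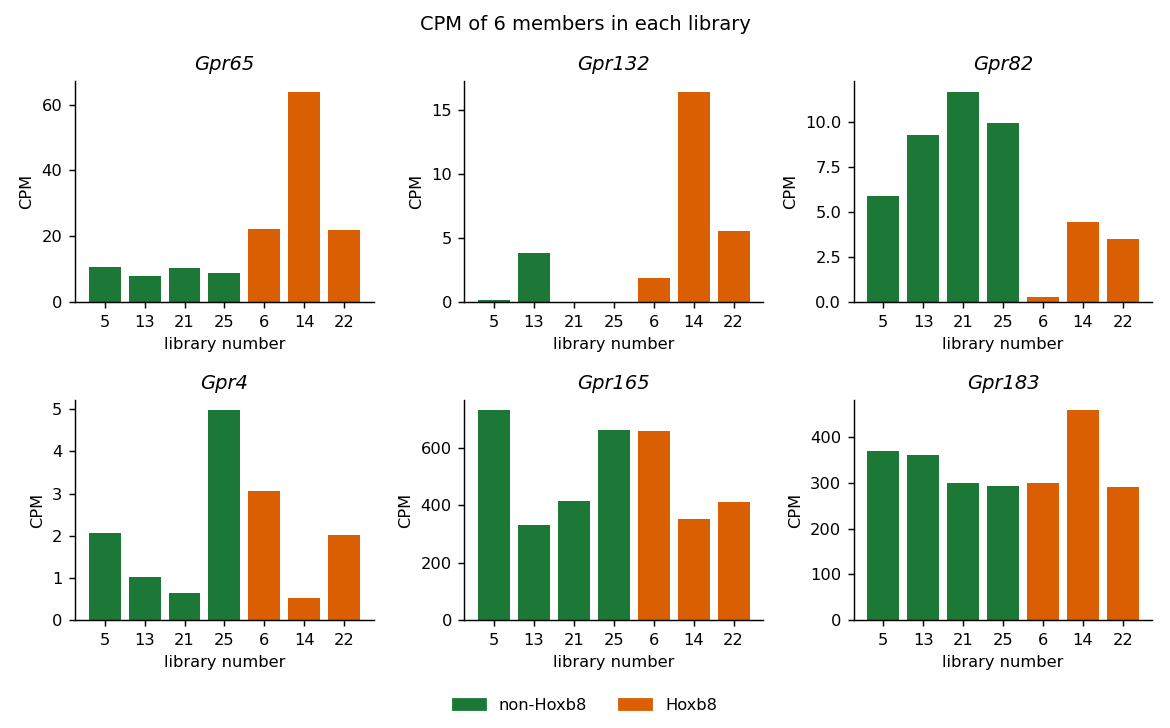
CPM of Gpr65, Gpr132, Gpr82, Gpr4, Gpr165 and Gpr183, 1 bar per library, with library numbers on the horizontal axis and each panel on its own linear scale from 0. Gpr65 is at 21.8 CPM or more in the Hoxb8 and at 10.7 CPM or less in the non-Hoxb8 libraries, Gpr82 shows the reverse order, and the other 4 genes overlap between groups.

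Among receptors for lipids and metabolites of leukocytes, 5 of 7 were tested and 4 lay above 0, with a median log2 fold change of 0.26. Gpr183, also called EBI2, binds oxysterols and guides migrating lymphocytes and dendritic cells. It stood at 370, 359, 299 and 292 CPM in non-Hoxb8 libraries 5, 13, 21 and 25, and at 299, 458 and 291.0 CPM in Hoxb8 libraries 6, 14 and 22. The highest and the lowest values both came from Hoxb8 libraries, and the log2 fold change was 0.08 ± 0.19 (SE, edgeR adjusted p = 1.00). Per kilobase of exon, it had the highest level of the 43 genes, at 117 CPM. Of the enzymes that make or clear its oxysterol ligand, 2 of the 4 in the table were tested and 0 passed: Hsd3b7 stood at 36.1 ± 5.65 and 34.6 ± 14.1 CPM, and Cyp27a1 at 44.0 ± 12.2 and 39.6 ± 10.2 CPM, in Hoxb8 (SD, n = 3) and non-Hoxb8 (SD, n = 4) libraries.

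Gpr82, an orphan receptor of the X chromosome, was the only tested member with every Hoxb8 library below every non-Hoxb8 library. It stood at 5.91, 9.30, 11.7 and 9.96 CPM in non-Hoxb8 libraries 5, 13, 21 and 25. It stood at 0.27, 4.45 and 3.50 CPM in Hoxb8 libraries 6, 14 and 22. The counts behind these levels were small, 43 to 73 per non-Hoxb8 and 2 to 33 per Hoxb8 library. The log2 fold change was -1.74 ± 0.77 (SE) with an edgeR p of 0.038 and an adjusted p of 1.00, and in libraries 5, 6, 13 and 14 alone it was -1.68 ± 1.20 (SE, edgeR adjusted p = 1.00). Its neighbour Gpr34, a microglial receptor for lysophosphatidylserine, lies 20504 bases upstream, and both lie in an intron of Cask on the other strand. Gpr34 stood at 2310.0 ± 185 (SD, n = 3) and 2191 ± 302 CPM (SD, n = 4) and differed by 0.08 ± 0.14 on the log2 scale (SE, edgeR adjusted p = 1.00), and Cask at 198 ± 4.74 and 176 ± 34.7 CPM. Reads from the introns of Cask cannot be told from reads of Gpr82 without strand. Gpr82 lies on the plus strand of chromosome X from 13661363 to 13667433, and the 250 bases before its start are shown because its groups separated in the direction opposite to Gpr65. They occupy chrX:13661113-13661362 (plus strand, RefSeq annotation, GRCm38.p6) and contain neither GAGGAA nor TATAAA on either strand, which says only that these letters are not in this window.
Gpr82: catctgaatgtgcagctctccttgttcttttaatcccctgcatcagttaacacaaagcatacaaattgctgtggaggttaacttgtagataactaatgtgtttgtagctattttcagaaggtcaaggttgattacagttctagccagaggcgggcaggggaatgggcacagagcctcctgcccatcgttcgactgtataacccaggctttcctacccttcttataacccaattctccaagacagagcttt

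The other members of this group overlapped between groups. Gpr35, which responds to kynurenic acid, stood at 74.3, 45.0, 39.8 and 51.9 CPM in non-Hoxb8 and at 62.5, 83.3 and 46.1 CPM in Hoxb8 libraries (log2 fold change 0.28 ± 0.29, SE, edgeR adjusted p = 1.00). Gpr160, an orphan proposed as a receptor for the CART peptide, stood at 40.8, 45.2, 54.4 and 61.3 CPM in non-Hoxb8 and at 50.2, 53.9 and 76.6 CPM in Hoxb8 libraries (0.26 ± 0.26, SE, edgeR adjusted p = 1.00). Gpr160 was the higher in the Hoxb8 library of each adjacent pair, by 1.19 to 1.41 times, and with the library pairs its log2 fold change was 0.35 ± 0.26 (SE, edgeR adjusted p = 1.00). So was Gpr18, by 1.38 to 3.47 times. The share of all genes with the same direction in every pair was not counted. Gpr18, proposed to bind N-arachidonoyl glycine, averaged 5.62 ± 3.49 (SD, n = 3) and 2.80 ± 1.91 CPM (SD, n = 4), and its log2 fold change was 1.01 ± 0.85 (SE, edgeR adjusted p = 1.00). It lies 36769 bases from Gpr183 on chromosome 14, and both are inside introns of Ubac2 on the opposite strand.

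Gpr165, an orphan receptor of the X chromosome, varied between libraries without regard to group. It stood at 732, 331, 416 and 663 CPM in non-Hoxb8 libraries 5, 13, 21 and 25, and at 660.3, 353 and 412 CPM in Hoxb8 libraries 6, 14 and 22. Libraries of adjacent number lay close together, with ratios of Hoxb8 to non-Hoxb8 of 0.902, 1.07 and 0.989, while the highest library held 2.21 times the lowest. The log2 fold change was -0.17 ± 0.30 (SE, edgeR adjusted p = 1.00). Xist, the X-inactivation transcript of female cells, measured 22542 and 14953 CPM in libraries 5 and 6, 23.2 and 15.1 CPM in libraries 13 and 14, 8537 and 8291 CPM in libraries 21 and 22, and 14318 CPM in library 25. The summed level of 4 Y-linked genes was 0.41 and 0 CPM, 293 and 269 CPM, 133 and 95.3 CPM, and 84.7 CPM in the same order. Gpr165 was therefore lowest in the pair with most Y-linked and least Xist RNA, which is a description over 7 libraries for which the labels name 4 animals. At 112 CPM per kilobase of exon, Gpr165 was next to Gpr183.

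The other members listed as brain receptors overlapped between groups wherever they are given here. Gpr146, a receptor tied to cholesterol levels in mice, stood at 96.4, 109, 104 and 81.2 CPM in non-Hoxb8 and at 145, 88.4 and 109.98 CPM in Hoxb8 libraries (log2 fold change 0.23 ± 0.22, SE, edgeR adjusted p = 1.00). Gpr157, a receptor on the cilia of radial glial progenitors, stood at 93.2, 66.2, 47.9 and 48.1 CPM and at 75.8, 45.0 and 36.0 CPM (-0.29 ± 0.31, SE, edgeR adjusted p = 1.00). Gpr157 was lower in the Hoxb8 library of each adjacent pair, with ratios of 0.679 to 0.812, yet the groups overlapped. Gpr21 and Gpr22, each inside an intron of a gene with more reads (Strbp and Cog5), had log2 fold changes of -0.96 ± 0.72 and -0.31 ± 0.76 (SE, edgeR adjusted p = 1.00 for both). Exons of Gpr21 also overlap Rabgap1 on the same strand over 74 bases. Rabgap1 averaged 157 CPM in Hoxb8 and 136 CPM in non-Hoxb8 libraries. Of the 16 members on this list, 7 were tested and 3 lay above 0, with a median log2 fold change of -0.17.

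The Golgi and lysosomal proteins included the member with the smallest standard error. Gpr155, a lysosomal membrane protein that senses cholesterol and acts on mTOR signalling, stood at 803, 548, 704 and 613 CPM in non-Hoxb8 libraries 5, 13, 21 and 25, and at 741, 765 and 765 CPM in Hoxb8 libraries 6, 14 and 22. The Hoxb8 libraries had an SD of 13.6 CPM (n = 3) and lay inside the non-Hoxb8 range, and the log2 fold change was 0.18 ± 0.15 (SE, edgeR adjusted p = 1.00). Per kilobase of exon its level was 106 CPM, close to those of Gpr183 and Gpr165. Gpr108, a Golgi protein that adeno-associated viruses use on entry, stood at 39.7, 46.9, 65.6 and 58.6 CPM and at 75.4, 33.3 and 71.4 CPM (0.19 ± 0.30, SE, edgeR adjusted p = 1.00). Hoxb8 libraries held both ends of its range. Gpr137b, a lysosomal membrane protein, stood at 68.3, 49.3, 48.7 and 53.8 CPM and at 43.4, 49.8 and 39.9 CPM (-0.31 ± 0.25, SE, edgeR adjusted p = 1.00). Any reads shared with the annotated pseudogene Gpr137b-ps, which stood at 28.03 ± 5.83 CPM in non-Hoxb8 (SD, n = 4) and 30.8 ± 0.84 CPM in Hoxb8 libraries (SD, n = 3), could have been counted for either, and their sequences were not compared here, so both counts are uncertain. Of the 9 members on this list, 8 were tested, 6 lay above 0, and the median log2 fold change was 0.17.

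**Figure D4:**
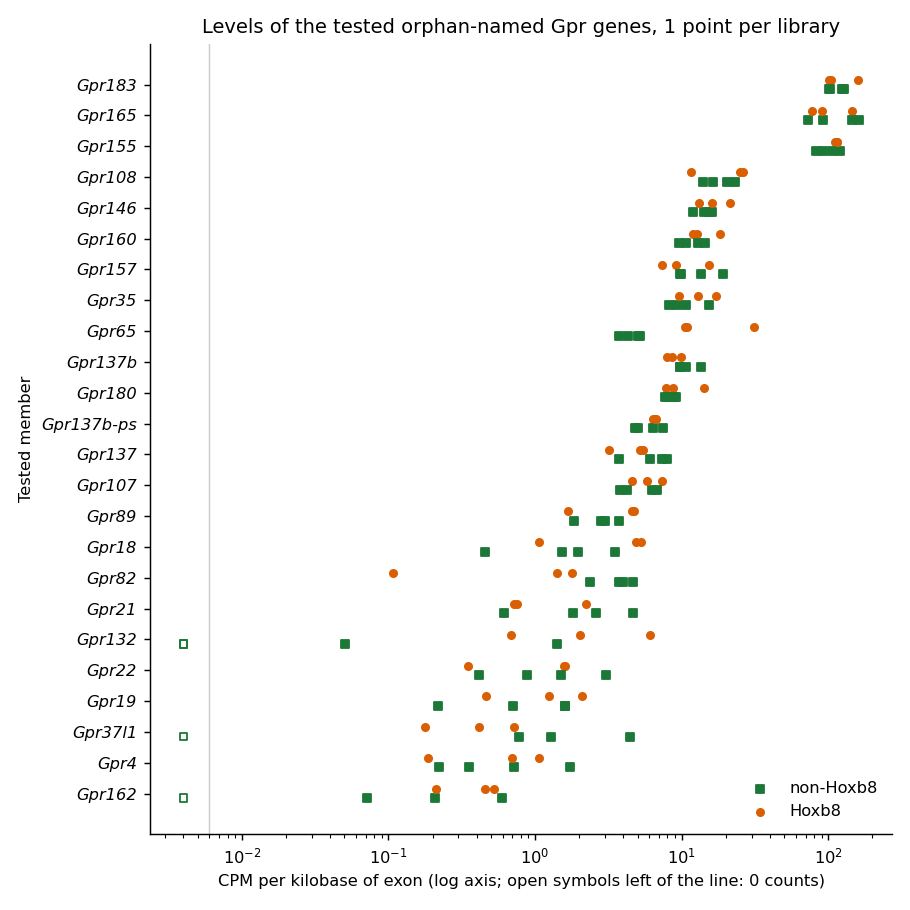
CPM per kilobase of exon (log axis) of 24 tested members, ordered by their mean over 7 libraries, with 1 symbol per library and open symbols at the left for libraries with 0 counts. Gpr183, Gpr165 and Gpr155 stand at 117, 112 and 106, the next gene, Gpr108, at 19.5, and the groups overlap for all genes shown but Gpr65 and Gpr82.

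Libraries lay closer together for the members at higher levels. The 15 members at 10 CPM or more had a median coefficient of variation of 24.4% over the 7 libraries (13.1% to 95.7%, the highest being Gpr65), and the 10 tested members below that level had one of 73.4% (51.6% to 149%). Library 14 held the highest level of 7 of the 25 tested members (28%), against 16.4% of all tested genes. Of the 43 genes, 42 are protein-coding and 21 have their protein in 1 coding exon, while the exons of 15 overlap another gene.

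Of the 3 glial receptors measured, 1 was tested. Gpr37l1, a receptor of astrocytes, stood at 0, 2.93, 1.76 and 10.1 CPM in non-Hoxb8 libraries 5, 13, 21 and 25, and at 0.94, 1.62 and 0.40 CPM in Hoxb8 libraries 6, 14 and 22. The highest value was in library 25, which also had the highest astrocyte marker sum (1214 CPM), and the groups overlapped (log2 fold change -1.88 ± 1.27, SE, edgeR adjusted p = 1.00). The log2 fold change was -0.66 ± 1.31 (SE) without library 25, -0.20 ± 1.45 (SE) with the library pairs, and -0.20 ± 1.84 (SE) in libraries 5, 6, 13 and 14 alone (edgeR adjusted p = 1.00 in each). Gpr17, a receptor of oligodendrocyte precursors, had 6 counts in library 5 and 24 in library 13, and 0 elsewhere. Gpr37, a receptor of oligodendrocytes, had 21 counts in library 6 and 0 elsewhere.

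Several members with too few counts to test were found in 1 group only, and they are named after their values were seen. The share of all genes with as few counts that were found in 1 group only was not counted, so these are descriptions only. The constitutively active receptors, which raise cyclic AMP without an added ligand, were Gpr3, with 34 counts over 5 libraries, and Gpr12. Gpr12 had 18 counts in library 6 and 25 in library 22 and 0 elsewhere, Hoxb8 library 14 included. Its level pooled over each group was at least 17.5-fold higher in Hoxb8, with 3 counts over the non-Hoxb8 group as the floor. Gpr141, an orphan, had 56 counts in library 14, 6 in library 22 and 0 elsewhere (at least 25.2-fold higher). Gpr37 and Gpr20 (12 counts in library 14) were at least 8.53-fold and 4.87-fold higher on the same measure, and Gpr17 and Gpr39, a zinc receptor (12 counts in library 13), at least 8.21-fold and 3.28-fold lower, each from 1 or 2 libraries. With no filter on low counts, 0 of the members passed edgeR after adjustment. In that fit 5 of 43 members were higher and 2 were lower at an unadjusted p under 0.05, beside 2.94% and 2.14% of 14455 genes. Gpr12, Gpr141, Gpr37 and Gpr17 are among them, and were picked because their counts fell in 1 group only. Small p-values follow in part from that choice and are not a test of these genes. Of the class C orphans, Gpr158 had 12 and 15 counts in libraries 13 and 14 and 0 elsewhere, and Gpr179 had 23 counts over 4 libraries. The fold bounds pool the libraries of a group, do not measure the spread between them, and were computed only for members at 0 in 1 group. The reads had no molecular identifiers, so these bounds cover counting error only.

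No gene of the tested signalling machinery passed edgeR's test. Of 12 tested G alpha subunits, 11 G beta and gamma subunits, 7 receptor kinases and arrestins and 10 RGS proteins, 0 passed, 0 had an unadjusted p under 0.05, and DESeq2 called 0. Their median log2 fold changes were -0.13, -0.07, -0.02 and -0.07. Gnas, the Gs subunit through which Gpr65 acts, stood at 535 ± 110.0 (SD, n = 3) and 545 ± 118 CPM (SD, n = 4), and Gnb1, a beta subunit, at 342 ± 96.3 and 311 ± 25.2 CPM. Rgs2, which shortens the signal, stood at 973 ± 41.3 and 1036 ± 336 CPM. Of 7 tested adenylyl cyclases, which make cyclic AMP, 6 had a positive log2 fold change, with a median of 0.22, and 0 passed edgeR. DESeq2 called 1 further cyclase, Adcy2, lower (adjusted p = 0.033), a gene named after its values were seen, which edgeR left untested and which stood at 0 to 0.13 CPM in Hoxb8 and 0.14, 0.64, 2.73 and 21.6 CPM in non-Hoxb8 libraries, the last in library 25.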

How the data were processed

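RNA was measured in 7 libraries of sorted cortical microglia (3 Hoxb8, 4 non-Hoxb8). Per the labels' protocols, cells were released with trypsin, bound to beads against CD11b and sorted by red and green fluorescence, libraries were read unstranded from a single end, and STAR 2.4.1c mapped them to GRCm38. Further tools named in the submitters' processing notes are DESeq2, featureCounts and Subread. The deposited values are raw counts, 1 row per symbol, and how the 14616 rows were selected is not stated. Rows with no gene name (22, a median of 0.133% of counts) were left out. Hoxb8 itself and mitochondrially encoded genes are not analysed here.

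All genes were fitted in R 4.3.3 with edgeR 4.0.16 (TMM, filterByExpr, robust glmQLFit, glmQLFTest), with Benjamini-Hochberg adjustment over 11874 genes at 0.05. DESeq2 1.42.0, limma-voom (limma 3.58.1), other normalisations and filters, library pairs, each library left out, and libraries 5, 6, 13 and 14 alone were alternatives. DESeq2 without library 14 was added after seeing the data. The test was checked on simulated counts. Standard errors were derived from the fold change and the F statistic. Levels between genes use exon lengths from GENCODE M21, in which all 43 members matched, and gene positions and overlaps come from the same release. The labels name an earlier GENCODE release, so lengths and overlaps may differ from those of the gene models used for counting. P-values measure the spread between libraries, part of which may be technical. The labels name 4 animals for the 7 libraries, yet libraries 21, 22 and 25 held RNA of both sexes. How many animals contributed to each library is therefore not known. Within libraries of adjacent number, deviations from group means had correlations across genes of 0.18, 0.28 and 0.19, and these libraries were therefore tried as pairs, a pairing that no label states. Library 25 has no partner.

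Values in every library are given for members with an unadjusted p under 0.05, tested members whose groups do not overlap, the 10 with the highest CPM per kilobase, and tested members of the proton-sensing, glial and constitutively active lists; of each other list, mainly the first tested genes and genes past the test. A tested member that this rule also picks is counted but not reported here. The members and lists were chosen with earlier results of these data known.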

Additional observations from a re-analysis of the deposited data

Results flagged for a closer look

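Gpr132 in library 13 stood apart from the other 3 non-Hoxb8 libraries: on the log2 CPM scale (prior count 2) its gap to the next library was 0.852 of the group's whole range, above Dixon's 95% critical value for 4 samples. The level was 3.82 CPM there and 0.14, 0 and 0 CPM in libraries 5, 21 and 25. These rest on 30 counts against 1, 0 and 0, so the lower libraries lie at or near the floor set by the prior count. Neither the critical value nor the number given by chance allows for such a floor. The same test was run on 14 members, for which chance alone gives about 0.7 such results, and 1 was found. Library 13 also had 408 CPM of Il1b, and library 14, its neighbour in number, had 943 CPM of Il1b and the highest Gpr132 level, 16.5 CPM. Library 22 went the other way, with 5.53 CPM of Gpr132 and 8.76 CPM of Il1b, and the part of Il1b was not tested.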

How the results depend on the processing

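Among the 14 members given with values in every library, tried under 16 alternatives each, 213 of 224 combinations kept the direction and the side of the threshold, 1 gained a call and 10 changed sign. The gained call was Gpr65 under DESeq2, where 1 member was called higher. In all other alternatives 0 members were called in either direction. The median log2 fold change of the tested members stayed between 0.07 and 0.21. Over all genes, DESeq2 called 21 higher and 5 lower, limma-voom 0 higher, DESeq2 without library 14 (an alternative chosen after seeing the data) 10 higher and 4 lower, the fit with adjacent library numbers as a replicate block 43 higher, and libraries 5, 6, 13 and 14 alone 0 higher. Leaving out 1 library gave 0 to 6 genes higher (0 without library 5 and 2 without library 14). The sign changes came from members near 0 and the cause was not tested. With 1 library left out, log2 fold changes ran from -0.16 to 0.20 for Gpr183, -0.49 to 0.015 for Gpr165, -0.0066 to 0.48 for Gpr108 and -0.75 to 0.59 for Gpr4. Gpr4 was at 0.46 with the replicate block and 0.23 in libraries 5, 6, 13 and 14 alone. DESeq2 without library 14 put Gpr183 at -0.16 and Gpr4 at 0.23. The block changed no call among the members. Members under 10 CPM have standard errors of up to 1.34 on the log2 scale, so differences of several fold were not detectable for them in these libraries. The parts of depth and of spread between libraries in these errors were not tested.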
